A study of Mus musculus with 4 samples.

Results

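The genes described here are those of the enzymes that cut the extracellular matrix and of their inhibitors: the matrix metalloproteinases (MMPs), the ADAMTS proteases with the related ADAMTS-like proteins, and the tissue inhibitors of metalloproteinases (TIMPs). They were taken by name, as the symbols that begin with Mmp, Adamts, Adamtsl or Timp followed by a digit, which gave 51 of the 24421 symbols counted: 23 MMPs, 19 ADAMTS proteases, 5 ADAMTS-like proteins and 4 TIMPs. Their RNA was compared between DPPIV+ and DPPIV- fibro-adipogenic progenitors (FAPs), stromal cells of skeletal muscle that were sorted as PI- CD31- CD45- Sca1+ cells and then split by DPPIV, the surface protein encoded by Dpp4. Both populations came from each of 2 wild-type mice, called mouse 1 and mouse 2, which gave 4 bulk libraries and n = 2 per population. Paired values below give mouse 1 before mouse 2, and ± after a log2 fold change is its standard error. Both mice had received a CSF1R inhibitor in chow for 3 weeks followed by 3 days of regular diet, so that all 4 libraries share the drug and its withdrawal, and untreated FAPs are not part of this comparison. The labels give the tibialis anterior as tissue, whereas the protocol describes the muscle of both hindlimbs, and of age and sex the methods say for the study as a whole that the mice were adults and of both sexes, without giving those of these 2 animals.

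MMPs are zinc proteases that together can cut most proteins of the matrix, and many of them are made as inactive pro-enzymes. ADAMTS proteases are secreted relatives whose best-known targets are the large proteoglycans, the procollagens and cartilage oligomeric matrix protein, while ADAMTS-like proteins resemble them but lack the protease domain and are found on microfibrils. TIMPs bind the active site of MMPs, and TIMP3, which stays bound to the matrix, also blocks several ADAM and ADAMTS enzymes. FAPs are a main source of matrix in muscle.

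The libraries held between 18240110 and 20879405 reads counted on genes. Dpp4, the gene of the sorting marker, was 3.41 higher on the log2 scale in DPPIV+ FAPs (standard error 0.08), by 3.02 in mouse 1 and 3.86 in mouse 2. The FAP markers Pdgfra, Ly6a, Cd34 and Dcn were all read in the 4 libraries, and all 4 were called, Pdgfra (-0.38) and Dcn (-0.28) as lower and Ly6a (0.58) and Cd34 (0.52) as higher in DPPIV+ FAPs on the log2 scale. Their summed level was between 15620 and 19170 CPM (counts per 1000000 counts of a library, on library sizes scaled by TMM). Markers of other cells were also read. Tenocyte markers (Scx, Tnmd, Mkx and Fmod) were higher in DPPIV+ FAPs in 4 of 4 genes, with a summed level of 196 and 294 CPM in the DPPIV- and 747.5 and 1547 CPM in the DPPIV+ libraries. Scx (18 and 34 reads against 66 and 143) reached the 2 CPM needed for the test only in the DPPIV+ libraries, where it was higher. Mural cell markers were lower in 5 of 6 genes, with 121 and 123 CPM in the DPPIV- and 51.0 and 63.4 CPM in the DPPIV+ libraries. Kcnj8, among those called, reached 2 CPM on unscaled totals only in the DPPIV- libraries, where it was higher (102 and 78 reads against 30 and 34). Blood endothelial markers were lower in 3 of 4 genes, with 55.3 and 32.3 CPM against 35.6 and 30.2 CPM, but the populations overlapped for all 4. Of the 3 called, Pecam1 (-2.5e-05) and Kdr (0.10) were not lower in mouse 2 beyond these log2 ratios. Cdh5 was lower in both mice (-0.33 and -0.32). Myofibre and glial markers passed the threshold in 0 of 3 and 0 of 2 genes tested, and satellite cell markers were under the filter. These counts stand beside the 33.0% of all genes tested that were called. The part of any of these cells in the differences below was not tested. In bulk RNA, fewer cells that express a gene and less RNA per cell cannot be told apart.

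Of the 51 genes, 39 passed the filter on low counts (at least 2 CPM on unscaled library totals in at least 2 libraries). Of these 39, 13 were higher in DPPIV+ FAPs, 20 were lower and 6 did not pass the threshold of 0.05 on the p-value that edgeR gave by quasi-likelihood, adjusted by Benjamini-Hochberg over all 11588 genes tested. Over all genes tested, 33.0% were called, 15.9% as higher and 17.2% as lower. As a set, the members were also read more often than most genes. Their median level of 74.0 CPM lay above the median of all genes tested. A higher level makes a given difference easier to call. The families differed in this. The median of the MMPs, 8.55 CPM, lay below that of all genes tested, and 12 of the 14 MMPs tested were called. The medians of the other families lay above it. The part of the level in the share of calls was not tested. The median log2 fold change of the 39 members was -0.30 beside -0.0020 for all genes. The median size of the change, whatever its sign, was 0.72 beside 0.16. The populations did not overlap for 33 of the 39 members, beside 56.3% of all genes (27.8% with DPPIV+ above and 28.5% with DPPIV+ below). A change of at least 1 on the log2 scale was called for 12 members, beside 7.79% of all genes tested. Mmp13 and Mmp17 passed the filter through the DPPIV- libraries alone, where they were higher; Mmp13 in the DPPIV+ library of mouse 2 lay just under the 2 CPM of the filter on the unscaled total and just above it after TMM scaling. DESeq2's Wald test on the same counts called 25 of the 39, beside 16.6% of all genes. With the mouse in the model, the p-values rest on how far the difference between the populations varies between these 2 mice. That spread was taken for every gene from the trend of genes of similar abundance. Mice that disagree for a given gene therefore do not by themselves widen its standard error.

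**Figure D1:**
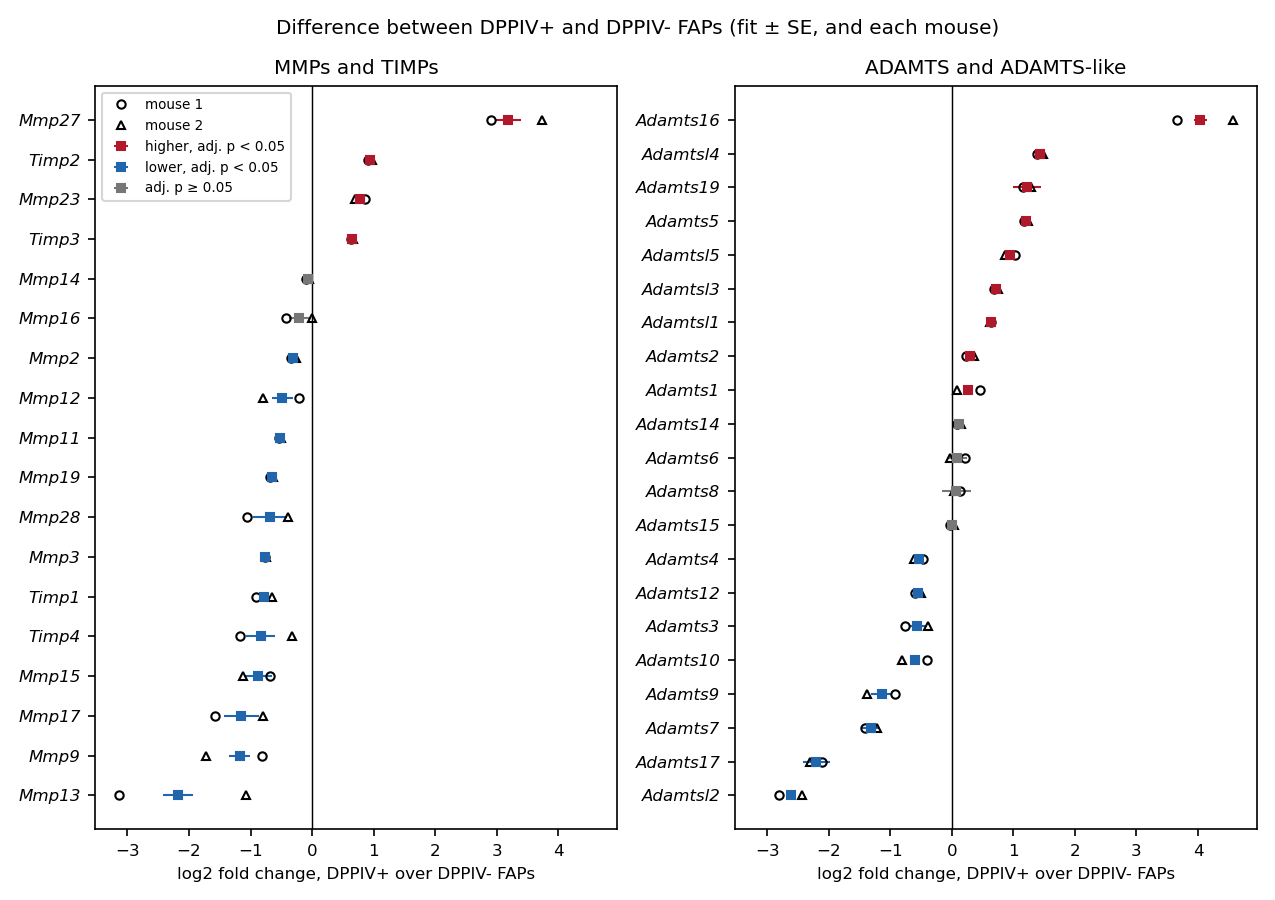
Log2 fold change of the 39 members tested (x axis) for each gene (y axis), as the fitted value with its standard error (squares with bars) and as the log2 ratio in mouse 1 (open circles) and mouse 2 (open triangles); red squares were higher and blue squares lower past the threshold, and grey squares did not pass. Adamts16 and Mmp27 lie farthest to the right, and Adamtsl2, Adamts17 and Mmp13 farthest to the left, with the mice far apart for Mmp13 (-3.14 and -1.08).

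Among MMPs, 10 of the 14 tested were lower in DPPIV+ FAPs, 2 were higher and 2 did not pass the threshold. Of all genes tested, 17.2% were lower and 15.9% higher. The gelatinases Mmp2 and Mmp9, which cut denatured collagen and basement membrane collagen, were both lower. Mmp2 (ENSMUSG00000031740.8, chromosome 8 of GRCm38 from 92827291 to 92853420) was by far the most read MMP. It had 3754 and 3409 CPM without DPPIV on the cell surface, and 2953 and 2847 CPM with it. All values in DPPIV- FAPs lay above those in DPPIV+ FAPs, but the step was small. The log2 fold change was -0.30 ± 0.08 with an edgeR adjusted p of 0.000354, and Mmp2 was lower in 2 of 2 mice. Mmp9 (chromosome 2 from 164940780 to 164955850) was read far less, with 14.1 and 10.1 CPM in the DPPIV- and 8.04 and 3.07 CPM in the DPPIV+ libraries. The groups did not overlap, and the log2 fold change was -1.17 ± 0.17 with an edgeR adjusted p of 3.12e-11. It was -0.81 in mouse 1 and -1.72 in mouse 2. Without the mouse term in the model, neither Mmp2 nor Mmp9 passed the threshold, and Mmp9 was -0.59 without the DPPIV+ library of mouse 2 and -1.98 without that of mouse 1.

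Stromelysins cut many matrix proteins and can activate other pro-MMPs. Mmp3 (stromelysin 1) had 92.1 and 93.9 CPM in the DPPIV- and 54.2 and 55.9 CPM in the DPPIV+ libraries, so that the mice differed little and the populations clearly. Its log2 fold change was -0.76 ± 0.07, with -0.77 in mouse 1 and -0.75 in mouse 2. Mmp11 (stromelysin 3), which is activated inside the cell by furin, was 0.52 lower on the log2 scale, from a mean of 48.4 ± 1.30 CPM (SD, n = 2) to 33.8 ± 1.50 CPM. Mmp10 had 3 and 0 reads in the DPPIV- and 1 and 0 reads in the DPPIV+ libraries and was not tested.

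Of the collagenases, which open the triple helix of fibrillar collagen, Mmp13 alone was read at a level that could be tested. The DPPIV- libraries held 257 and 84 Mmp13 reads and the DPPIV+ libraries 25 and 37, or 12.3 and 4.29 CPM against 1.39 and 2.03 CPM. DPPIV- FAPs of mouse 1 stood well above the other 3 libraries, and the fitted log2 fold change of -2.18 ± 0.24 joined -3.14 in mouse 1 with -1.08 in mouse 2, which is also the value without mouse 1. DESeq2's Wald test did not call Mmp13, and neither did edgeR with either DPPIV+ library left out, while without the DPPIV- library of mouse 1 the log2 fold change was -1.32. Of the cartilage and bone markers, Runx2, a transcription factor of bone and hypertrophic cartilage, was lower as well (412 and 355 reads against 72 and 106), and so was Sox9 (487 and 503 against 214 and 206). Sp7, which defines osteoblasts, had at most 1 read in any library, and Col10a1, which defines hypertrophic cartilage, had 0. The summed level of these 4 markers was 42.91 and 43.77 CPM in the DPPIV- and 15.85 and 17.14 CPM in the DPPIV+ libraries. The cartilage collagen gene Col2a1, listed among the substrates below, was under the filter and went the other way. It had 6 and 11 reads in the DPPIV- and 34 and 41 reads in the DPPIV+ libraries. The part of bone or cartilage cells in the difference of Mmp13 was not tested. Mmp8, the neutrophil collagenase, had between 2 and 7 reads in each library, and Mmp1a and Mmp1b had 0 in all 4. A count of 0 allows up to 3 reads, between 0.143 and 0.166 CPM in these libraries, and covers counting error only.

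Membrane-type MMPs act at the cell surface. Mmp14, which activates pro-MMP2 there with TIMP2 as adaptor, had 1034 and 967 CPM in the DPPIV- and 969 and 935 CPM in the DPPIV+ libraries. Its values overlapped between the populations, and its log2 fold change was -0.07 ± 0.07 with an edgeR adjusted p of 0.506. Mmp17, which is held by a lipid anchor, had 63 and 60 reads in the DPPIV- against 18 and 32 in the DPPIV+ libraries (log2 fold change -1.15 ± 0.29). Mmp15, a transmembrane enzyme, was 0.88 lower on the log2 scale (124 and 89 reads against 66 and 38). Mmp16 did not pass the threshold, with -0.42 in mouse 1 and 0.0014 in mouse 2. Mmp24 had at most 5 reads and Mmp25 at most 5 reads in any library. DESeq2's Wald test called neither Mmp15 nor Mmp17.

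Mmp23 and Mmp27 were the MMPs that were higher in DPPIV+ FAPs. Mmp23 encodes a small membrane-bound enzyme without the hemopexin domain of most MMPs, and had 57.4 and 59.6 CPM in the DPPIV- and 104 and 96.8 CPM in the DPPIV+ libraries (log2 fold change 0.78 ± 0.07). Mmp27 encodes a little-studied relative of the stromelysins. It had 51 and 17 reads in the DPPIV- against 328 and 212 in the DPPIV+ libraries, and both DPPIV+ values were several times above both DPPIV- values. Its log2 fold change was 3.19 ± 0.20 with an edgeR adjusted p of 1.06e-52, and it was 2.90 in mouse 1 and 3.73 in mouse 2. Mmp19, a secreted enzyme that cuts basement membrane proteins, went the other way, from 195.7 and 190.6 CPM to 121.9 and 122.9 CPM (log2 fold change -0.66). It shares 789 exon bases with Tmem198b on the opposite strand, which had between 794 and 915 reads and did not pass the threshold. Mmp12, the macrophage elastase, and Mmp28 (epilysin) were lower with log2 fold changes of -0.48 and -0.68, and both calls were lost in DESeq2 and without the mouse term. Mmp28 differed by -1.06 in mouse 1 and -0.39 in mouse 2. With 1 library left out, Mmp28 lay between -0.27 (without the DPPIV+ library of mouse 1) and -1.19 (without that of mouse 2), and Mmp12 was -0.19 without the DPPIV+ library of mouse 2 and -0.82 without that of mouse 1. Mmp7, Mmp20 and Mmp21 had 0 reads in all 4 libraries.

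Mmp9 and Mmp12 are known from leukocytes, whose markers were read beside them. Of the 6 macrophage markers (Adgre1, Cd68, Csf1r, Lyz2, Mrc1 and Ptprc), 4 were lower in DPPIV+ FAPs and 0 were higher. Their summed level was 308 and 187 CPM in the DPPIV- against 195.5 and 175.5 CPM in the DPPIV+ libraries, a step of -0.66 (mouse 1) and -0.09 (mouse 2) on the log2 scale. Mmp9 and Mmp12 differed more in mouse 2 (-1.72 and -0.80) than in mouse 1 (-0.81 and -0.21). The neutrophil markers S100a8 and S100a9 had between 20 and 38 reads in the DPPIV- libraries, 13 and 31 in the DPPIV+ library of mouse 1 and 3 and 9 in that of mouse 2. Their summed level differed by -0.13 (mouse 1) and -2.29 (mouse 2) on the log2 scale, also more in mouse 2. The part of either cell type in the differences of Mmp9 and Mmp12 was not tested.

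The MMPs that could be tested on chromosome 9 lie in 1 cluster of 10 Mmp genes, from 7272514 to 7699585 on GRCm38, and they did not move together. In order along the chromosome, Mmp13, Mmp12 and Mmp3 were lower in DPPIV+ FAPs, Mmp27 was higher, and Mmp1b, Mmp1a, Mmp10, Mmp8, Mmp20 and Mmp7 had too few reads to test. Mmp27 starts 298.9 kb after Mmp13 and 2911 bases after the end of Mmp8. The bases before the start sites of Mmp13, Mmp3 and Mmp27 are shown because these neighbours moved apart. Each stretch is the 120 bases before the RefSeq start site on GRCm38.p6, on the plus strand of chromosome 9, at chr9:7272394-7272513, chr9:7445702-7445821 and chr9:7571276-7571395, and capitals mark the binding motif of AP-1 and a TATA box, both spelled out after the sequences.
Mmp13: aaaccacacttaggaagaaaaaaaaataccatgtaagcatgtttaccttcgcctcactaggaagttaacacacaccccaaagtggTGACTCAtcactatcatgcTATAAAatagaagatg
Mmp3: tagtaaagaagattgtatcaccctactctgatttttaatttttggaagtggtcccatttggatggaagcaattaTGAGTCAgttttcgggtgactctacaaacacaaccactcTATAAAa
Mmp27: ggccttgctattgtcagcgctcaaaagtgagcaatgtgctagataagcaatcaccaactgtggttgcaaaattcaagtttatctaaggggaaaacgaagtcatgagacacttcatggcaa

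The AP-1 motif begins 35 bases before the start site of Mmp13 and 46 bases before that of Mmp3, and neither motif is in the window of Mmp27. RefSeq promoters were matched for 36 of the 51 members, with 39 promoters in all because some genes have further start sites. TGANTCA, searched on both strands, was in the 120 bases of 8 of these 39 promoters (of Mmp10, Mmp12, Mmp13, Mmp1a, Mmp1b, Mmp20, Mmp3 and Mmp7), all of them in this cluster, and in 3.41% of the 32851 promoters of the table. For Mmp12 the motif lies before the later start site, at chr9:7347254-7347373, and not before the earlier start site. Mmp7 likewise has a further start site without it. TATAAA, searched on the strand of the gene, was in 10 of the 39 promoters (of Adamts1, Adamtsl2, Mmp10, Mmp13, Mmp1a, Mmp1b, Mmp20, Mmp21, Mmp3 and Mmp7) and in 4.19% of all promoters. Genes with the AP-1 motif here include 3 that were lower in DPPIV+ FAPs and 5 with too few reads to test, and the match of letters is a description of the window.

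**Figure D2:**
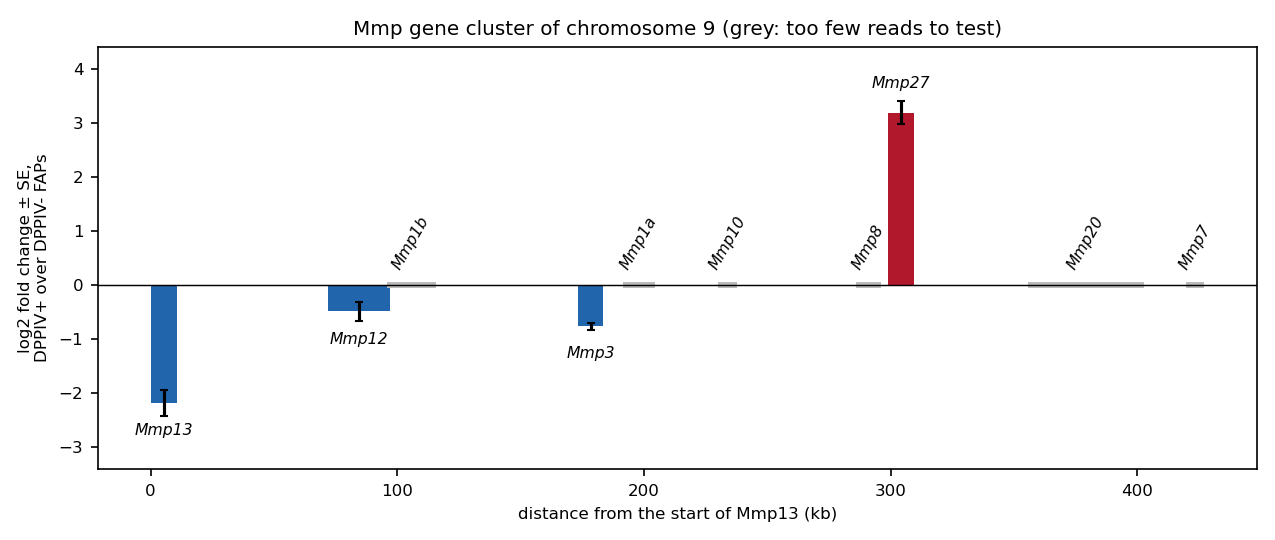
Log2 fold change with its standard error (y axis) of the 10 Mmp genes of the chromosome 9 cluster, drawn as bars as wide as each gene at its distance from the start of Mmp13 in kb (x axis); blue bars were lower and the red bar higher in DPPIV+ FAPs, and grey marks are genes with too few reads to test. Mmp27 points up at 3.19, and Mmp13, Mmp12 and Mmp3 point down.

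All 4 TIMPs passed the filter, and they split, with Timp2 and Timp3 higher in DPPIV+ FAPs and Timp1 and Timp4 lower. Timp2 (ENSMUSG00000017466.9, chromosome 11 from 118301069 to 118355740), an inhibitor that also serves as the adaptor in MMP2 activation, had 2912 and 2654 CPM in the DPPIV- and 5469 and 5207 CPM in the DPPIV+ libraries. Both DPPIV+ values were close to each other and well above both DPPIV- values. The log2 fold change was 0.94 ± 0.08 with an edgeR adjusted p of 1.27e-31, and it was 0.91 in mouse 1 and 0.97 in mouse 2. Timp3 (chromosome 10 from 86300372 to 86349506) had 679.8 and 595 CPM in the DPPIV- and 1051 and 943 CPM in the DPPIV+ libraries (log2 fold change 0.65 ± 0.07). It shares 1733 exon bases with Syn3 on the opposite strand, for which 4 reads or fewer were counted per library. Timp1, which inhibits most soluble MMPs, had 93.8 and 109 CPM in the DPPIV- and 50.1 and 69.2 CPM in the DPPIV+ libraries (log2 fold change -0.78 ± 0.07). Exon bases are also shared with a gene on the opposite strand by Mmp1b, Mmp7, Mmp11, Mmp12, Mmp24, Mmp28, Adamts4, Adamts7, Adamts8, Adamts9 and Timp4. These overlaps span between 90 and 1381 bases, and whether the counting used strand is not given. Timp4 had 166 and 58 reads in the DPPIV- and 63 and 43 reads in the DPPIV+ libraries. Its populations overlapped, and its call (log2 fold change -0.84, with -1.18 in mouse 1 and -0.33 in mouse 2) was lost in DESeq2 and without the mouse term. Without the DPPIV- library of mouse 1, and so without the mouse term, its log2 fold change was -0.016.

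Per kilobase of exon, Mmp2 was the most abundant of all members in DPPIV- FAPs and Timp2 in DPPIV+ FAPs. Mmp2 had a mean level of 1063 CPM per kb in DPPIV- FAPs and 860.3 CPM per kb in DPPIV+ FAPs, and made up between 74.6% and 76.8% of the summed level of the MMPs in every library. Timp2 had 714 and 1370.0 CPM per kb. The ratio of Timp2 to Mmp2, as levels per kb, was 0.671 and 0.674 in the DPPIV- libraries but 1.60 and 1.58 in the DPPIV+ libraries. For the families as a whole, the summed level of the TIMPs was 0.647 and 0.659 of that of the MMPs in DPPIV- FAPs, and 1.35 times that of the MMPs in both DPPIV+ libraries. The summed level of the MMPs was 1450.0 and 1332 CPM per kb in DPPIV- FAPs and 1174 and 1131 CPM per kb in DPPIV+ FAPs. That of the TIMPs was 938 and 878 CPM per kb against 1590.0 and 1531 CPM per kb. Without Timp2, the other TIMPs summed to 190.5 and 197 CPM per kb in DPPIV- FAPs and 186 and 194 CPM per kb in DPPIV+ FAPs. In this sum, opposite changes nearly cancelled. From DPPIV- to DPPIV+ FAPs, mean Timp1 fell from 114.3 to 67.1 CPM per kb and Timp3 rose from 78.3 to 122.4 CPM per kb. In CPM without the length correction, which gives the long Timp3 transcript more weight, the sum without Timp2 did differ, with 781.5 and 707.2 CPM against 1105 and 1014 CPM. These sums were not tested, and they are levels of RNA.

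**Figure D3:**
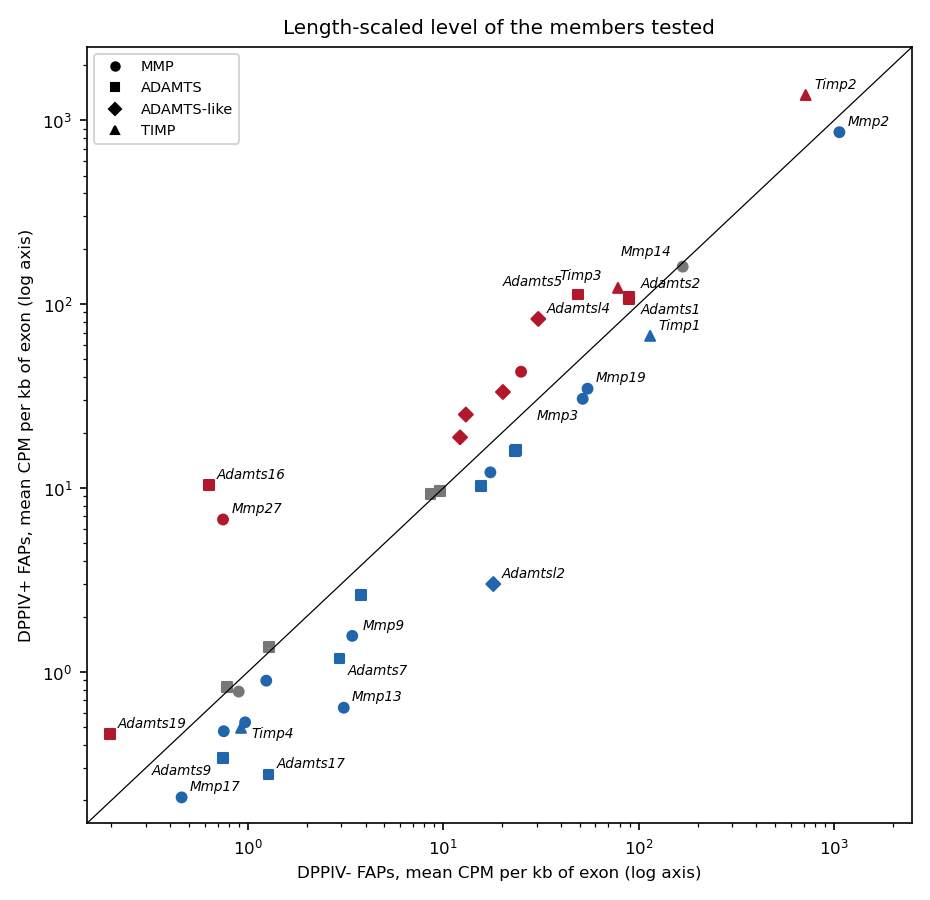
Mean level of each member tested in DPPIV- FAPs (x axis) against DPPIV+ FAPs (y axis), in CPM per kb of exon on log axes, n = 2 mice; circles are MMPs, squares ADAMTS proteases, diamonds ADAMTS-like proteins and triangles TIMPs, with red for higher, blue for lower and grey for not past the threshold, and the line marks equal levels. Timp2 lies above the line and Mmp2 just below it at the upper end, and Adamts16, Mmp27 and Adamtsl2 lie farthest from the line.

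Of the 16 ADAMTS proteases tested, 5 were higher in DPPIV+ FAPs, 7 were lower and 4 did not pass the threshold. The shares over all genes tested were 15.9% higher and 17.2% lower. The hyalectanases cut versican, aggrecan and related proteoglycans, and they moved in both directions. Adamts5, an aggrecanase and versicanase (ENSMUSG00000022894.6, chromosome 16 from 85856173 to 85901828), had 578 and 476 CPM in the DPPIV- and 1308 and 1127 CPM in the DPPIV+ libraries. Both mice showed nearly the same step, 1.18 and 1.24 on the log2 scale, and the fitted log2 fold change was 1.21 ± 0.07, with an edgeR adjusted p of 4.85e-62. Adamts1, whose gene lies 53060 bases from that of Adamts5, was only 0.27 higher on the log2 scale, with 0.45 in mouse 1 and 0.08 in mouse 2, and this call was lost in DESeq2 and without the mouse term. Adamts4, the other main aggrecanase, was lower, with 99.8 and 126 CPM in the DPPIV- and 72.2 and 82.6 CPM in the DPPIV+ libraries (log2 fold change -0.54 ± 0.07). Adamts9, a widely expressed versicanase, had 239 and 215 reads in the DPPIV- against 108 and 77 in the DPPIV+ libraries (log2 fold change -1.14 ± 0.17). Adamts8 and Adamts15, neighbours 20110 bases apart on chromosome 9, did not pass the threshold. Their log2 fold changes were 0.07 ± 0.23 and -0.0012 ± 0.07, and the sign of that of Adamts15 changed with the settings. Adamts20 had between 11 and 20 reads per library and was not tested.

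Procollagen N-proteinases remove the amino-terminal propeptide from fibrillar procollagens. Adamts2, the main enzyme of this kind, had 856 and 802 CPM in the DPPIV- and 1009 and 1035 CPM in the DPPIV+ libraries, a small step of 0.30 ± 0.07 on the log2 scale that did not pass without the mouse term. Adamts14 had a log2 fold change of 0.11 ± 0.07 and did not pass the threshold. Adamts3 was lower by call, with 18.2 and 23.1 CPM in the DPPIV- and 10.7 and 17.7 CPM in the DPPIV+ libraries (log2 fold change -0.56 ± 0.12), and this call was lost in DESeq2 and without the mouse term. Both enzymes known to cut cartilage oligomeric matrix protein, Adamts7 and Adamts12, were lower in DPPIV+ FAPs. Adamts7 had 376 and 373 reads in the DPPIV- against 121 and 149 in the DPPIV+ libraries (log2 fold change -1.32 ± 0.14). Adamts12, the more abundant of the pair per kb, went from 253 ± 40.2 CPM (SD, n = 2) to 173 ± 18.8 CPM (log2 fold change -0.55 ± 0.07).

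The largest change of any member was that of Adamts16 (ENSMUSG00000049538.14, chromosome 13 from 70727802 to 70841811), a secreted protease with few established targets. It had 120 and 57 reads in the DPPIV- and 1304 and 1266 reads in the DPPIV+ libraries, or 5.72 and 2.91 CPM against 72.3 and 69.3 CPM. The DPPIV+ libraries were alike, and both stood far above both DPPIV- libraries. Its log2 fold change was 4.03 ± 0.11 with an edgeR adjusted p of 4.84e-296, and it was 3.66 in mouse 1 and 4.57 in mouse 2. Adamts18, its nearest relative in the family, had at most 3 reads in any library.

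Adamts17 and Adamts19 form another pair of close relatives, and they moved in opposite directions. Adamts17, mutated in a human syndrome of short stature and displaced lenses, had 200 and 201 reads in the DPPIV- and 40 and 38 in the DPPIV+ ones, with no overlap and hardly any difference between the mice (log2 fold change -2.20 ± 0.22). Adamts19 had 60 and 52 reads in the DPPIV- against 115 and 119 in the DPPIV+ libraries (log2 fold change 1.22 ± 0.22). Of the related pair Adamts6 and Adamts10, Adamts10, a fibrillin-binding protease, was lower, with 121 and 137 CPM in the DPPIV- and 91.4 and 78.4 CPM in the DPPIV+ libraries (log2 fold change -0.61). Adamts6 did not pass the threshold (log2 fold change 0.09 ± 0.15). Adamts13, the plasma protease that cuts von Willebrand factor, had 1 read in all.

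The ADAMTS-like proteins bind microfibrils and have no protease activity of their own. All 5 passed the filter and the test (beside the 33.0% called over all genes), 4 of them higher in DPPIV+ FAPs and Adamtsl2 lower. Adamtsl2 (ENSMUSG00000036040.14, chromosome 2 from 27079379 to 27108981), which is mutated in geleophysic dysplasia and binds fibrillin and latent TGF-beta binding protein, had 123 and 165 CPM in the DPPIV- and 17.7 and 30.3 CPM in the DPPIV+ libraries. This was the largest decrease among the members. The log2 fold change was -2.60 ± 0.07 with an edgeR adjusted p of 3.33e-258, and it was -2.80 in mouse 1 and -2.44 in mouse 2. Adamtsl4 (chromosome 3 from 95676201 to 95687917), which is mutated in inherited displacement of the lens and promotes fibrillin microfibrils, had 132 and 125 CPM in the DPPIV- and 345 and 352 CPM in the DPPIV+ libraries (log2 fold change 1.44 ± 0.07). Adamtsl5 had 61.0 and 62.1 CPM in the DPPIV- and 124 and 113 CPM in the DPPIV+ libraries (log2 fold change 0.94). Adamtsl3 and Adamtsl1 were higher by 0.72 and 0.63 on the log2 scale, with nearly the same ratio in both mice. For Adamtsl1, the libraries of mouse 1 (181 and 281 CPM) lay above those of mouse 2 (130.0 and 201 CPM) in both populations, and its call was lost without the mouse term.

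**Figure D4:**
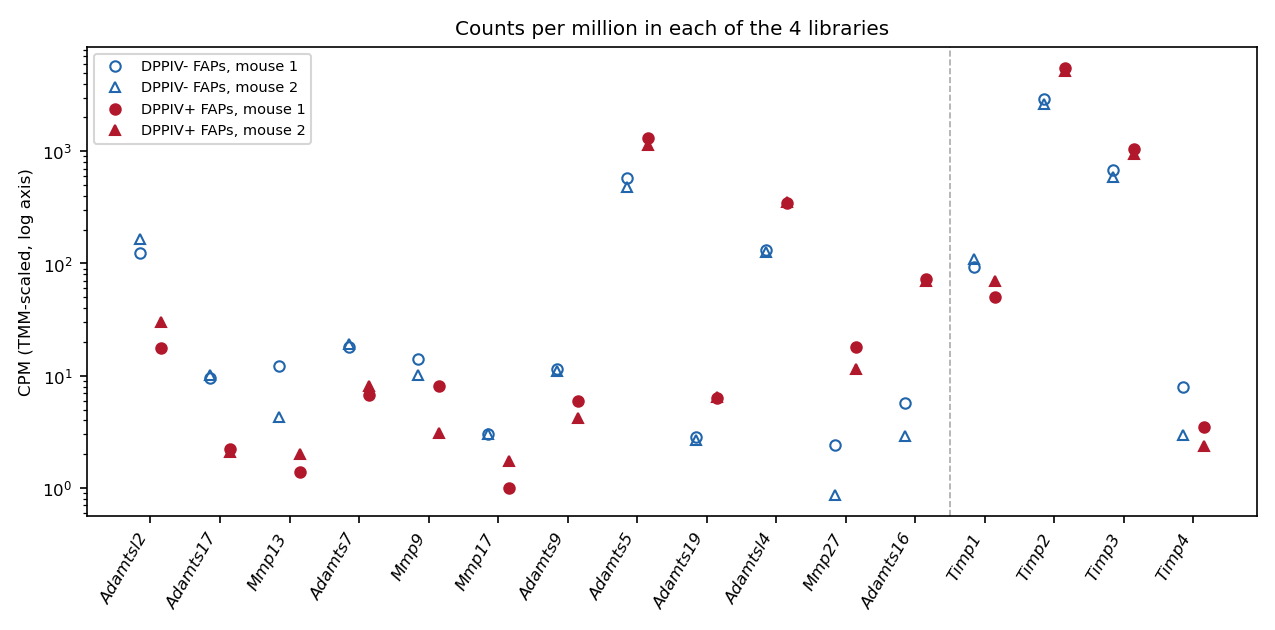
CPM in each of the 4 libraries (y axis, log scale) for the 12 members called with a log2 fold change of at least 1 in size, ordered by fold change, and for the 4 TIMPs at the right of the dashed line (x axis). Open blue symbols are DPPIV- FAPs and filled red symbols DPPIV+ FAPs, with circles for mouse 1 and triangles for mouse 2; of the genes drawn, Timp4 is the one whose populations overlap.

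Genes that activate, assist, inhibit or serve as substrates of these enzymes were listed from their known roles. Of 42 such genes, 35 passed the filter, of which 16 were higher and 12 lower in DPPIV+ FAPs (beside the 33.0% called over all genes), with a median log2 fold change of 0.0022. Among 10 ADAM proteases, the membrane-bound relatives, 6 were higher and 3 lower. Adam12 fell most, with 933 and 1737 reads in the DPPIV- against 325 and 600 in the DPPIV+ libraries (log2 fold change -1.38 ± 0.08), and Adam33 rose by 1.11 ± 0.08. Of 5 astacin proteases and procollagen processing enhancers, Bmp1, Tll2 and Pcolce2 were higher. Pcolce2, which speeds the removal of the carboxy-terminal propeptide, went from 3875 and 2523 reads to 9050 and 8666 reads (log2 fold change 1.66 ± 0.07), and Tll2 had a log2 fold change of 1.07 ± 0.25. Among the convertases that activate pro-enzymes, Pcsk6 was higher, with 18289 and 13603 reads in the DPPIV- against 44630 and 43643 in the DPPIV+ libraries (log2 fold change 1.64 ± 0.07), whereas Furin (-0.17 ± 0.07) and Pcsk5 (-0.20 ± 0.07) were slightly lower. The populations overlapped for Pcsk5. Reck, a membrane-bound MMP inhibitor, rose by 0.56 ± 0.07 on the log2 scale. In the plasminogen system, Plat (0.82 ± 0.07) and Plaur (0.38 ± 0.13) were higher. Plau was slightly lower (-0.19 ± 0.07), though its populations overlapped.

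Of 12 substrates listed, 8 passed the filter, 3 of them higher and 4 lower in DPPIV+ FAPs (beside the 33.0% called over all genes). Versican (Vcan), the main proteoglycan target of the hyalectanases, was 0.24 higher on the log2 scale (standard error 0.07), though its populations overlapped. Acan, Bcan and Ncan had at most 16 reads in any library, and Col2a1, also under the filter, had at most 41. Comp, the target shared by Adamts7 and Adamts12, was 0.56 ± 0.07 lower, with -0.81 in mouse 1 and -0.32 in mouse 2, and its populations overlapped. Fbn1, the fibrillin of adult microfibrils, was 1.16 ± 0.08 higher, and Fbn2, the fibrillin of developing tissue, was 2.20 ± 0.20 lower, from 149 and 312 reads to 17 and 78 reads. Fn1 (fibronectin) was 1.33 ± 0.09 higher. Col1a1 and Col1a2 were lower by 0.40 and 0.22, and Col3a1 did not pass the threshold.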

How the data were processed

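Both FAP populations of 2 mice were sequenced as paired-end RNA libraries. The authors aligned the reads to mm10 with STAR, tallied them per annotated gene with RnaReadCounter and deposited raw counts per gene symbol, with no filter; the annotation and the strand setting of the counting are not given in the sources used here, and the kit is NEBNext Ultra II Stranded in the labels and TruSeq Stranded in the methods. Library totals ranged from 18240110 to 20879405 counts, and 3 counts were taken as the limit for a count of 0. Reads carry no molecular identifiers.

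Genes with 2 CPM in at least 2 libraries were kept, with CPM on unscaled library totals for the filter and on TMM-scaled sizes elsewhere. Populations were compared in a model with animal and cell type by the quasi-likelihood F test of edgeR 4.0.16 (R 4.3.3, TMM, not robust, two-sided), with Benjamini-Hochberg adjustment over all genes kept and a threshold of 0.05. The standard error is the size of the log2 fold change over the square root of F. The prior degrees of freedom were infinite, so genes took the spread of their abundance trend. Log2 ratios per mouse used a prior count of 0.125. CPM per kb divides CPM by the union of exons in GENCODE M21 (GRCm38), which matched all 51 members, and promoters came from RefSeq (GRCm38.p6). The animals pair the libraries, as the study's methods model and the sample titles show; differences between the mice had a correlation of 0.415 across genes between the populations. Replicates differed beyond counting noise (chi-square per degree of freedom 11.1 and 8.23). Alternatives were DESeq2 1.42.0, no animal term, RLE and upper-quartile factors, 3 other filters, a stricter threshold (0.01), robust moderation, likelihood ratios, a 1.5-fold minimum change, and libraries or mice left out. On counts simulated for this comparison (11472 genes tested), edgeR called 100 of 100 genes changed by 1 and 100 of 100 changed by 2 on the log2 scale, with 8 false calls, and DESeq2 called 85 of 100 and 100 of 100 with 2 false calls. In the simulation every gene had exactly the spread of the trend and the mice did not differ. That is the spread edgeR assumed here, so the simulation cannot show how either test fares for genes off the trend.

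The members, lists and alternatives were chosen with earlier results of these data known. Full values are given for members called with a log2 fold change of at least 1 in size and the same sign in both mice, for all TIMPs and for the most abundant members, the other called members are given with their log2 fold change, and related genes are named where the change was at least 1; those named below that size were chosen after their values were seen. One gene of the related lists is not reported here. Marker lists were FAPs, macrophages, neutrophils, blood endothelium, mural cells, tenocytes, satellite cells, myofibres, glia, and cartilage and bone.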

Additional observations from a re-analysis of the deposited data

How the results depend on the processing

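Of the 33 members called, 14 were called in each of the 15 alternatives with a test (Mmp3, Mmp23, Mmp27, Adamts5, Adamts7, Adamts9, Adamts16, Adamts17, Adamts19, Adamtsl2, Adamtsl4, Adamtsl5, Timp1 and Timp2), 0 changed direction, and 0 further members were gained. DESeq2 called 1918 genes in all and 13 members as lower, against 3826 and 20. Without the replicate block for the mouse, edgeR called 2120 genes and 13 members as lower. Requiring more than a 1.5-fold change left 1092 genes, 8 members higher, 8 lower and 10 of the 28 related genes. Leaving out each library in turn, without the replicate block, gave 2139 and 2035 genes without a DPPIV- library and 1364 and 1553 without a DPPIV+ library (mouse 1 first), between 10 and 12 members higher, between 12 and 16 lower and 18, 17, 11 and 15 related genes in the same order. The cause was not tested. Mmp13 and Mmp17 had no value when 2 CPM on unscaled totals were required in at least 3 libraries. The sign turned only for members that were not called: Adamts15 from -0.0012 to 0.00015 in DESeq2, 0.0017 without the replicate block, 0.00044 with RLE factors, 0.0099 without a filter and 0.0015 with 10 counts in every library; with a library left out, Adamts15 reached 0.13 and 0.15, Adamts8 -0.10 and -0.069, and Adamts6 -0.10. Leaving out a whole mouse gives the log2 ratio of the other one, with no test. Without mouse 1, the sign also turned for Mmp16 (0.0014), Adamts6 (-0.026) and Adamts15 (0.030), which were not called.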
